A study of Arabidopsis thaliana with 40 samples.

Results

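The LNK genes (night light-inducible and clock-regulated) of Arabidopsis thaliana were followed here through the acetylation of histone H3 at their loci, measured as H3K9/14ac. The 4 loci were LNK1 (AT5G64170), LNK2 (AT3G54500), LNK3 (AT3G12320) and AT5G06980, which carries the synonym LNK4 in RefSeq. A region was taken as a member where it overlapped a locus, or else lay within 1 kb of it. Of the 13362 regions in the authors' tables, 4 met this rule: 1 at LNK3, 1 at AT5G06980, and 2 beside LNK1 that overlap only neighbouring genes. LNK2 had no region within 1 kb. AT5G06980 was selected on its fold over water in the tables of 3 h, and its relatives were added by family. Values of those tables are therefore given as a description, without a test.

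LNK proteins have no known DNA-binding domain. They are coactivators that MYB-like factors of the REVEILLE (RVE) family, RVE8 and RVE4 among them, bring to clock genes such as PRR5 and TOC1, and LNK1 and LNK2 are the best studied, while LNK3 and LNK4 are smaller relatives. Transcripts of the family cycle over the day and are known to peak in the morning. H3K9/14ac lies at the start and body of active genes and is removed by histone deacetylases.

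All material was whole seedlings of ecotype Col-0, 7 days old, grown in shaken liquid medium with sucrose under 10 h of light and 14 h of dark. Each culture received water, 250 µM S-nitrosoglutathione (GSNO, a nitric oxide donor), 250 µM glutathione (GSH, which lacks the nitroso group), 250 µM GSNO with 500 µM cPTIO (a nitric oxide scavenger), or 5 µM trichostatin A (TSA, a deacetylase inhibitor), for 3 h or for 16 h. There were 2 biological replicates of each, with ChIP and input, which makes 40 samples, 20 of them ChIP. All groups shared the ecotype, and no mutant or transgene is named for any of them. The clock time of treatment or harvest is not in the labels, so the hours of treatment and the time of day at harvest cannot be told apart. In whole seedlings, more acetylation per cell and more cells carrying the mark cannot be told apart either.

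The tables gave 17 ChIP libraries: 2 for each group of 3 h, 2 for GSNO, GSH and GSNO with cPTIO at 16 h, and a single water library at 16 h. TSA at 16 h was seen only in the peak lists. Libraries are called a (shallower) and b, and held 1590342 to 4053207 reads in the regions. Levels are given as reads per kb of region and per 1000000 scaled reads, shortened to density. No library had a value under 1 read, and 111 regions stood at 1 read in at least 1 library. Among markers of whole seedlings, 3 of 4 shoot genes (TMM, AS1 and FIL, but not SPCH) and 2 of 4 root genes (SCR and SHR, but not WER or PLT1) had a region of their own. The summed density of the shoot markers ran from 181.7 to 248.9 in the 8 libraries of 3 h without TSA and from 177.2 to 235.5 in the 7 of 16 h, and that of the root markers from 174.4 to 237.0 and from 188.5 to 297.3.

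The region at AT5G06980 spans chr5:2167659-2168715 (1057 bp) and covers 45.6% of the locus. The region at LNK3 spans chr3:3923829-3924897 (1069 bp) and covers 53.8% of its locus. Neither overlaps another gene. Beside LNK1, chr5:25670010-25671600 (1591 bp) overlaps AT5G64150, AT5G09185 and AT5G64160, and lies 0.866 kb from LNK1. On its other side chr5:25677061-25677858 (798 bp) overlaps AT5G64180 and lies 0.238 kb away. The region nearest to LNK2 lay outside the limit, 1.87 kb away at AT3G54480, with densities of 50.3 to 65.5 in the 8 libraries of 3 h without TSA, 42.5 and 52.7 with TSA, and 25.8 to 68.9 at 16 h. Positions are those of the files, and the submitters' processing notes name both TAIR10 and TAIR9. Genes were placed by RefSeq's TAIR10.1 table, which gives no strand or exons, so the end of the gene on which a region lies is not stated.

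After 3 h the AT5G06980 region stood at 1 read, the lowest value of the tables, in both water libraries. Whether that value stands for no reads or for reads left after input subtraction is not given. The region was low with GSNO, GSH and GSNO with cPTIO, and highest with TSA. It held 1 and 1 reads in the water libraries, 1 and 91 with GSNO, 16 and 50 with GSH, 1 and 23 with GSNO with cPTIO, and 174 and 177 with TSA. The TSA libraries agreed closely at a density of 71.0 ± 0.213 (SD, n = 2). The other groups were low and uneven, with 0.396 ± 0.160 in water, 10.7 ± 14.4 with GSNO, 9.41 ± 5.44 with GSH and 3.44 ± 4.14 with GSNO with cPTIO (SD, n = 2 each). With GSNO and with GSNO with cPTIO the signal came from library b alone, and library a stood at the same 1 read as water. Library b was the deeper of each pair, with 4053207 against 1752168 reads for GSNO and 3392158 against 1853253 for GSNO with cPTIO. The water libraries, both at 1 read, had 1867830 and 3319709 reads. The part of depth in these gaps was not tested.

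**Figure D1:**
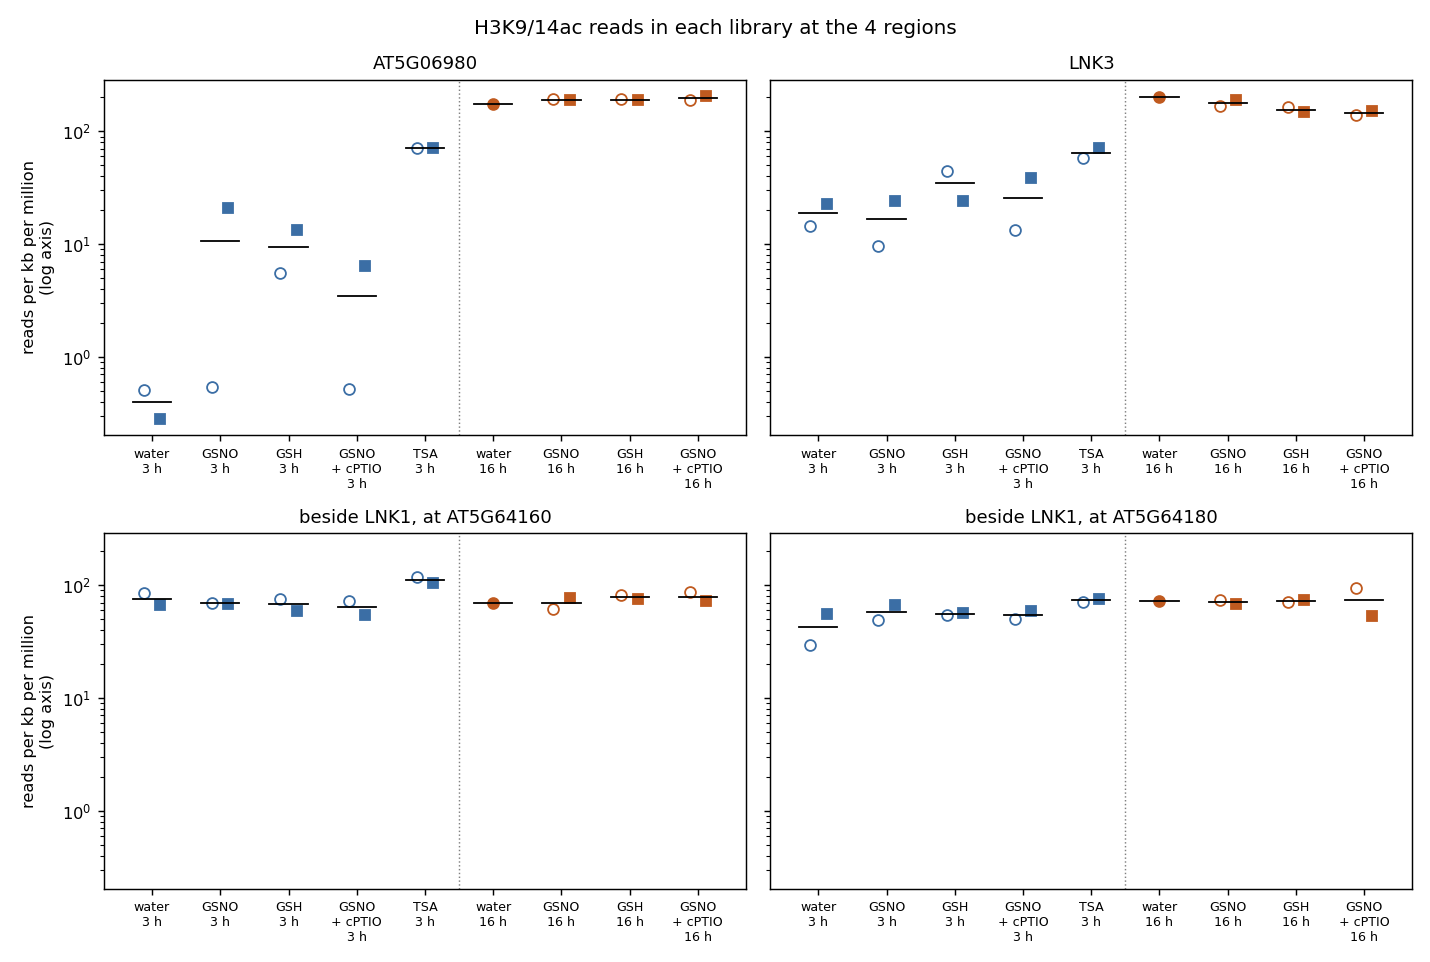
H3K9/14ac density (reads per kb and per 1000000 scaled reads, log axis) of each library at the 4 regions, by treatment and time; open circles are library a, filled squares library b, the filled circle the lone water library of 16 h, and bars the group means. At AT5G06980 the 7 libraries of 16 h lie at or above 175.0 and the 8 of 3 h without TSA at or below 20.9, while the regions beside LNK1 stay between 29.7 and 117.3 throughout.

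In the authors' deposited tables the log2 fold of AT5G06980 over water at 3 h was 7.47 with TSA, 4.76 with GSNO, 4.57 with GSH and 3.12 with GSNO with cPTIO. These folds rank 1, 2, 3 and 3 of 13362 in the authors' deposited tables, and they chose the locus. All are taken over a group at the lowest value of the tables and depend on how that value was set. From the recovered reads with a pseudocount of 1 they were 6.57, 2.55, 3.58 and 1.70, with GSH above GSNO. Against an assumed 3 reads in each water library, in place of the value given, the density was 59.7 times higher with TSA. It was 9.02 times higher with GSNO, 7.92 times with GSH and 2.90 times with GSNO with cPTIO. All 4 tables share the same 2 water libraries.

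LNK3 carried a low but measurable signal in every library of 3 h, and its highest values there were those of TSA. Reads were 29 and 82 in water, 18 and 106 with GSNO, 130 and 93 with GSH, 26 and 140 with GSNO with cPTIO, and 145 and 179 with TSA. Densities of the 8 libraries without TSA ran from 9.68 to 44.8, and TSA stood above them at 58.6 and 70.8. Water, GSNO and GSNO with cPTIO overlapped with each other, and GSH overlapped with GSNO with cPTIO but lay above water and GSNO. The share of all regions with such an order of 2 libraries against 2 was not counted, and nothing is read from it. The group means were 18.8 ± 5.89 in water, 16.9 ± 10.2 with GSNO, 34.6 ± 14.4 with GSH, 25.8 ± 17.7 with GSNO with cPTIO and 64.7 ± 8.64 with TSA (SD, n = 2 each). The log2 folds over water in the authors' deposited tables were 1.78 with TSA, −0.15 with GSNO, 0.88 with GSH and 0.46 with GSNO with cPTIO. By fold in the authors' deposited table for TSA, LNK3 came at rank 47 of 13362.

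Both TSA libraries stood above the 8 other libraries of 3 h at all 4 regions, as they did at 17.9% of all regions. In the authors' deposited tables of 3 h, an FDR under 0.05 was reached by 20.8% of regions with TSA, 0.0449% with GSNO, 0.105% with GSH and 0.0374% with GSNO with cPTIO. Since the tables of 3 h chose the set, nothing is read from these counts. Beside LNK1 the step was small: with TSA the region at AT5G64160 had densities of 117.3 and 103.9 against 54.7 to 85.0, and the one at AT5G64180 had 70.4 and 75.8 against 29.7 to 66.7. The log2 folds over water were 0.54 and 0.77 in the authors' deposited table.

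**Figure D2:**
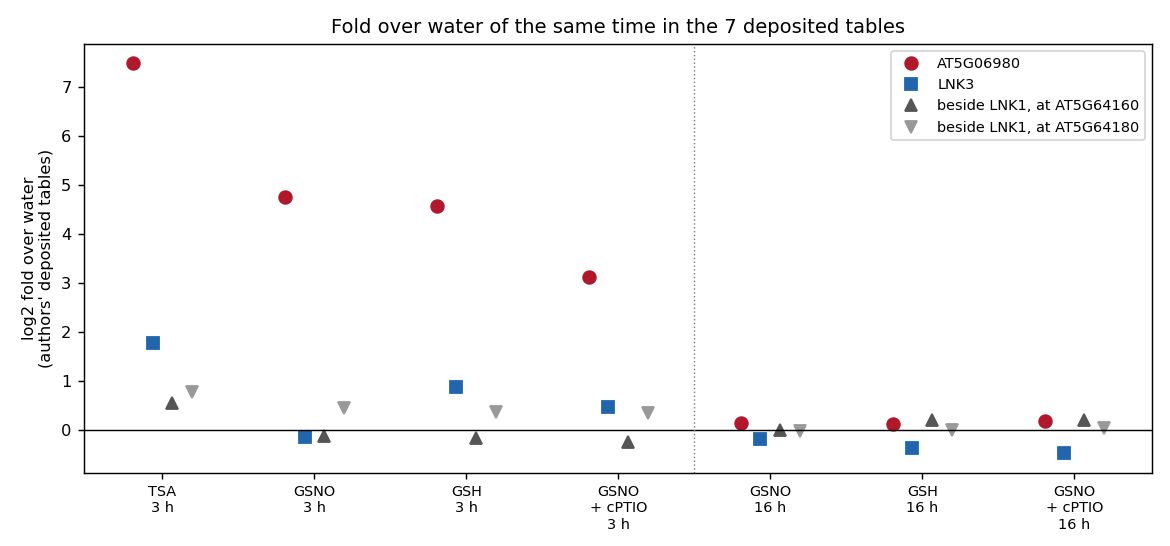
Log2 fold over water of the same time (vertical axis) at the 4 regions in the authors' 7 deposited tables, with 3 h on the left and 16 h on the right of the dotted line. AT5G06980 runs from 7.47 with TSA to 3.12 with GSNO with cPTIO at 3 h and from 0.12 to 0.17 at 16 h.

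GSNO, GSH and GSNO with cPTIO were also set against each other at 3 h, with limma across all regions. At LNK3, GSNO differed from GSH by −1.09 ± 0.39 on the log2 scale (95% interval −1.89 to −0.30, adjusted p = 1.00 by limma). Both GSNO libraries lay below both GSH libraries, with 24.1 and 24.4 in the b libraries, an order whose share over all regions was not counted. The difference ran from −1.73 without GSNO library b to −0.45 without GSNO library a. The difference between GSNO and GSNO with cPTIO was −0.55 (interval −1.35 to 0.24) and that between GSH and GSNO with cPTIO 0.54 (−0.26 to 1.34), each with an adjusted p = 1.00 by limma. No member region passed in these 3 comparisons, where 0.0% of all regions were called by limma and 229, 616 and 515 regions had an unadjusted p under 0.05. Both regions beside LNK1 differed by at most 0.13 on the log2 scale in the 3 comparisons, and the intervals of these differences ran from −0.62 to 0.72 at the widest. At AT5G06980, where the same libraries chose the locus, the values above are the description.

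By 16 h acetylation at AT5G06980 and LNK3 was high in every library, water included. AT5G06980 held 290 reads in the water library, 360 and 734 with GSNO, 581 and 732 with GSH, and 328 and 439 with GSNO with cPTIO. Scaled for depth these became 175.0 in water, 192 ± 3.48 with GSNO, 190 ± 2.97 with GSH and 197 ± 13.01 with GSNO with cPTIO (SD, n = 2 each). The water library was the lowest of the 7. The authors' deposited log2 folds over water were 0.13, 0.12 and 0.17, with an FDR of 0.997, 0.907 and 1.00 in the authors' deposited tables. The limma intervals of these differences reached from −2.55 at the lowest to 2.84 at the highest. By that test a difference of several fold was not excluded. Its intervals rest on 1 spread per region, pooled over all 17 libraries. That spread includes the uneven pairs of 3 h, such as 1 and 91 reads with GSNO, and does not measure the spread at 16 h alone.

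LNK3 at 16 h held 340 reads in water, 317 and 739 with GSNO, 498 and 589 with GSH, and 247 and 325 with GSNO with cPTIO. In density the water library was the highest at 203, followed by GSNO at 179 ± 13.7, GSH at 156 ± 9.42 and GSNO with cPTIO at 146 ± 7.85 (SD, n = 2 each). GSH and GSNO with cPTIO overlapped, and the GSNO libraries, at 169 and 189, lay above both. The share of all regions with such an order of 2 libraries against 2 was not counted, and nothing is read from it. The authors' deposited folds over water were −0.18 (FDR 0.997), −0.37 (FDR 0.564) and −0.48 (FDR 1.00). By limma the same differences had adjusted p values of 0.969, 0.916 and 0.766 and intervals from −1.45 at the lowest to 0.79 at the highest. Between treatments GSNO differed from GSH by 0.19 (interval −0.60 to 0.99), GSNO from GSNO with cPTIO by 0.29 (−0.50 to 1.09) and GSH from GSNO with cPTIO by 0.10 (−0.70 to 0.90), with adjusted p values of 1.00, 0.857 and 0.964 by limma.

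None of the 4 regions passed in any table of 16 h, where 0.935% of regions were called with GSNO, 2.16% with GSH and 0.561% with GSNO with cPTIO in the authors' deposited tables. By limma 0.329%, 0.374% and 0.666% of regions were called, and no member region. In the direct comparisons of 16 h limma called 0.0% of regions between GSNO and GSH (337 at an unadjusted p under 0.05), 0.0225% between GSNO and GSNO with cPTIO and 0.0599% between GSH and GSNO with cPTIO, again without a member region. The comparisons with water rest on a single water library, whose spread was assumed to be like that of the other groups.

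The step between the times was far larger than any difference within 16 h. At LNK3, density was 140.1 or more in all 7 libraries of 16 h and 44.8 or less in all 8 libraries of 3 h from the same 4 treatments. The rise was 2.96 ± 0.20 on the log2 scale (mean over the 4 treatments, 95% interval 2.54 to 3.39, adjusted p = 5.71e-10 by limma), rank 21 of 13362 by size. It was 10.9-fold in water, 11.4-fold with GSNO, 4.69-fold with GSH and 6.35-fold with GSNO with cPTIO. The median region moved by 0.013 or less on the log2 scale within each treatment. In the test of the difference from water, the rise with GSH differed by −1.21 on the log2 scale (interval −2.47 to 0.04, adjusted p = 0.999 by limma), and those with GSNO (0.07, adjusted p = 0.996) and with GSNO with cPTIO (−0.78, adjusted p = 0.865) did not pass either.

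AT5G06980 rose further, as a description: its density was 175.0 or more in all 7 libraries of 16 h and 20.9 or less in all 8 of 3 h. Against an assumed 3 reads in each water library of 3 h, its level at 16 h was 147 times higher in water. It was 161 times higher with GSNO, 160 times with GSH and 166 times with GSNO with cPTIO. Its mean log2 difference of 6.02 was rank 1 of 13362. Libraries of 16 h all lay above those of 3 h at 2.0% of regions, and all below at 1.28%. Of the 3 regions that could be tested between the times, 1 passed, LNK3, where 11.9% of all regions did by limma, 6.48% higher at 16 h and 5.45% lower. The root marker SCR was also higher at 16 h, by 0.36 ± 0.10 on the log2 scale (adjusted p = 0.0201 by limma), while TMM, AS1, FIL and SHR did not pass, and their part in the result was not tested.

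**Figure D3:**
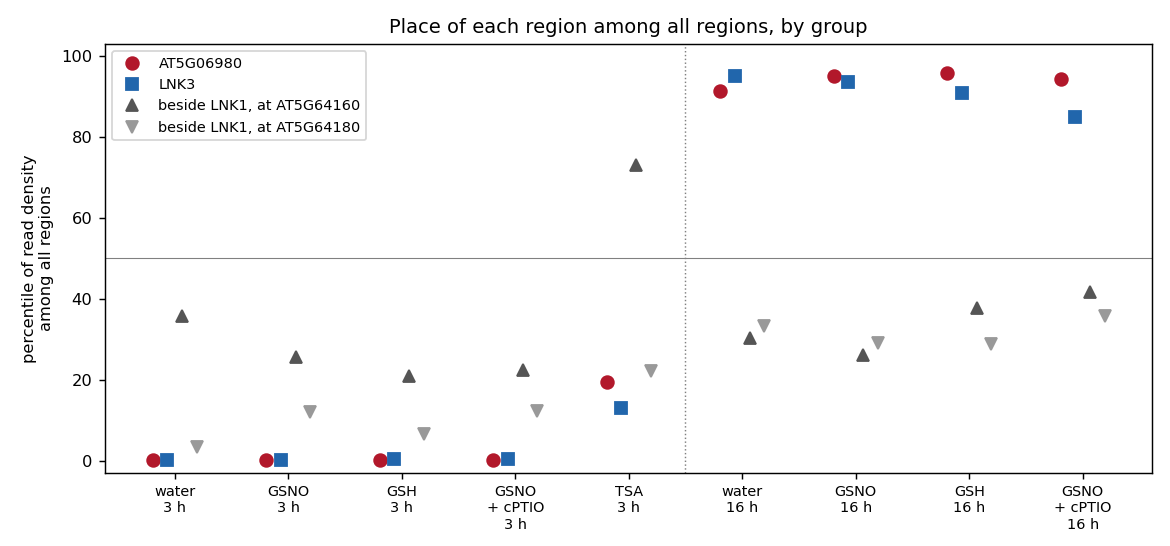
Percentile of each region's mean density among the 13362 regions (vertical axis) in each group of treatment and time. AT5G06980 and LNK3 lie below the 0.5 percentile in 4 of the groups of 3 h, at 19.44 and 13.07 with TSA, and between 84.93 and 95.94 at 16 h. AT5G06980 was chosen on values of 3 h.

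Set among all regions, both loci moved from the bottom of the range to near the top, as a description. AT5G06980 was chosen on its fold over the same water libraries of 3 h, so its low place there was largely fixed by the choice. In the 8 lists of 3 h without TSA, AT5G06980 had a peak in 0 and LNK3 in 1. How far the making of the region set placed both loci low at 3 h was not tested. AT5G06980 was at percentile 0.01 in water at 3 h and at 91.38 in water at 16 h. LNK3 went from 0.22 to 95.02 in water. With TSA at 3 h they reached only 19.44 and 13.07. The TSA level at 3 h was thus well short of the level in untreated seedlings of 16 h, with 71.0 against 175.0 at AT5G06980 and 64.7 against 203 at LNK3. Those groups differ in treatment and time together, and no test was made between them.

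The regions beside LNK1 moved less between the times than AT5G06980 and LNK3. In water the region at AT5G64160 was at percentile 35.62 at 3 h and 30.19 at 16 h. The region at AT5G64180 was at 3.31 and 33.37. The one at AT5G64160 had densities of 54.7 to 85.0 in the 8 libraries of 3 h without TSA and 61.3 to 86.9 in the 7 of 16 h, a difference of 0.10 ± 0.10 on the log2 scale (interval −0.10 to 0.31, adjusted p = 0.547 by limma). The one at AT5G64180 had 29.7 to 66.7 at 3 h and 53.0 to 94.98 at 16 h. Its difference was 0.47 ± 0.17 (interval 0.13 to 0.81) with an adjusted p = 0.0656 by limma, and the sets overlapped. It passed the threshold without water library b of 3 h (adjusted p = 0.0186), GSNO library b of 3 h (0.0492) or GSNO with cPTIO library b of 16 h (0.0146). The reads in these regions belong to the neighbouring genes by position and give no level for LNK1 itself.

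**Figure D4:**
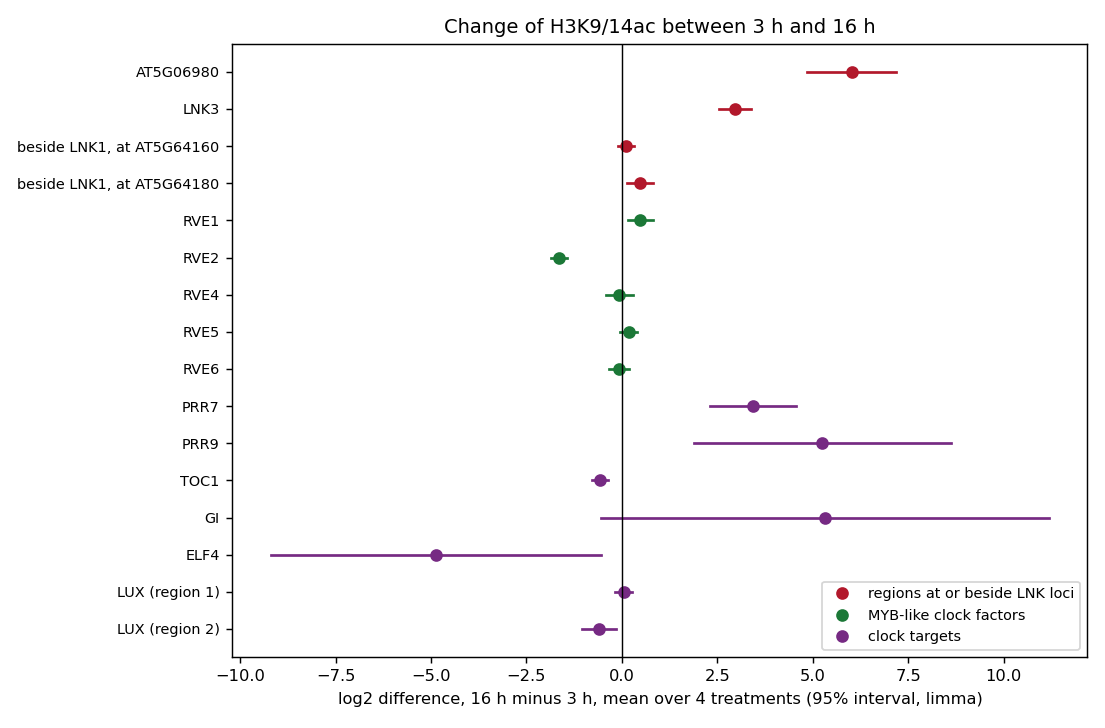
Log2 difference between 16 h and 3 h, averaged over water, GSNO, GSH and GSNO with cPTIO (points) with 95% intervals by limma (lines). Shown are the 4 regions, and the MYB-like factors and listed clock genes (labelled clock targets) that have a region. LNK3 stands at 2.96 and RVE2 at −1.65 with narrow intervals, while PRR9, GI and ELF4, which fall to 1 read in some libraries, have wide ones.

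Peaks that the authors called in each ChIP library extend the view to LNK1 and LNK2, and to TSA at 16 h. At LNK1 no list of 3 h had a peak on the locus, of 10, and 5 of 10 lists of 16 h did: water replicate 1, GSNO replicate 1, both GSH replicates and TSA replicate 1. These 5 peaks lay close together, from chr5:25676085-25676645 to chr5:25676172-25676658, at the end of the locus that faces AT5G64180. At LNK2 the count was likewise 0 of 10 and 5 of 10, the latter from both GSNO replicates, both GSH replicates and TSA replicate 1. Its peaks, such as chr3:20178258-20178849 in GSH replicate 2, also overlap AT3G08405, so the gene to which their reads belong cannot be told from position. Neither locus had a peak that covered 20% of it. Despite these peaks the authors' tables hold no region on either locus.

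A peak on LNK3 was found in 3 of 10 lists of 3 h, those of GSNO with cPTIO replicate 1 and both TSA replicates, and in 8 of 10 of 16 h. AT5G06980 had a peak in 2 of 10 lists of 3 h, both of TSA, and in 8 of 10 of 16 h. The lists without a peak at 16 h were water replicate 2 and TSA replicate 2, which held only 1044 and 344 peaks on the 5 chromosomes against 6005 to 14736 in the other 8. Without these short lists, an alternative chosen after the data were seen, both loci had a peak in 8 of 8. The lists with a peak at all 4 loci were GSNO replicate 1, both GSH replicates and TSA replicate 1 of 16 h, which held 13402 to 14736 peaks, the longest lists of that time.

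**Figure D5:**
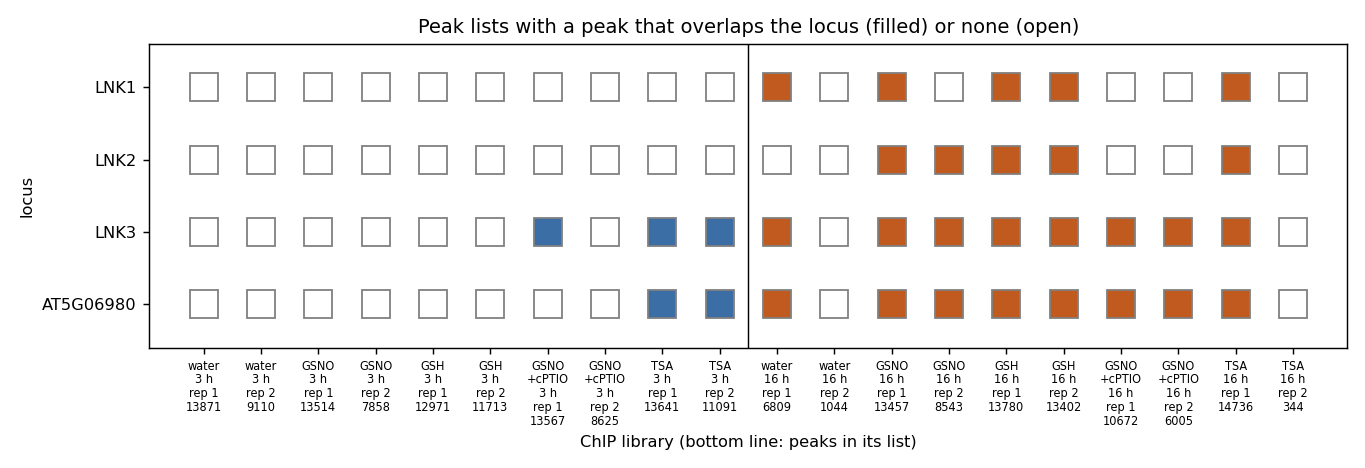
Presence (filled) or absence (open) of a called peak on each of the 4 loci (vertical axis) in the 20 ChIP peak lists (horizontal axis), with the number of peaks in each list on the bottom line. Filled squares crowd at 16 h, and the empty columns at 16 h belong to lists of 1044 and 344 peaks.

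Few genes share these peak patterns, but the patterns were set from the counts seen at the member loci. The shares below are therefore a description and give no support. Libraries of 3 h also chose AT5G06980. Among 27432 protein-coding genes, 22 (0.0802%) had no peak in any list of 3 h and a peak in at least 5 of 10 of 16 h, the pattern of LNK1 and LNK2. The reverse, at least 5 of 10 at 3 h and 0 of 10 at 16 h, was seen at 57 genes (0.208%). AT5G06980 belonged to 586 genes (2.14%) with a peak in both TSA lists of 3 h and in none of the other 8, and to 10 (0.0365%) that also had one in at least 8 of 10 lists of 16 h. Lists of 3 h held 7858 to 13871 peaks, and the part of list length in these patterns was not tested.

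Midpoints of the LNK3 peaks of 3 h and of 16 h did not overlap, but their lists differed in treatment as well. The midpoints of the 3 peaks of 3 h on LNK3 lay at 3924123, 3924148 and 3924196 on chromosome 3. They came from GSNO with cPTIO replicate 1 and both TSA replicates. Midpoints of the 8 peaks of 16 h, from every treatment, ran from 3924317 to 3924629. The share of genes with such a separation was not counted, and nothing is read from it. The spans overlapped, for example chr3:3923928-3924464 in TSA replicate 1 of 3 h and chr3:3924078-3924686 in TSA replicate 1 of 16 h. At AT5G06980 the midpoints of 3 h, at 2168024 and 2168183 on chromosome 5, fell near or within the range of 16 h, from 2168062 to 2168332. Positions come from each list's own calls and were not tested.

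The nearest neighbouring regions, chosen after their values were seen, moved less between the times. AT5G06970, whose region lies 0.754 kb from AT5G06980, had densities of 45.3 to 90.2 in the 8 libraries of 3 h without TSA and 93.7 to 133.1 in the 7 of 16 h. BUG22 (AT3G12300), 0.373 kb from LNK3, had 12.8 to 61.7 and 36.4 to 81.4. With TSA at 3 h, BUG22 had 82.54 and 55.44 against 18.04 and 43.38 in water. The lower TSA value lay within its range without TSA. AT5G06970 had 84.05 and 90.14 with TSA, both within its range without TSA. How far the TSA step at LNK3 is shared with BUG22 was not tested. At AT5G06970 the times did not overlap either, but by a far smaller step than at AT5G06980, while at BUG22 they did overlap.

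Among the other regions, those whose log2 reads followed AT5G06980 most closely over the 17 libraries were AT3G53830 (Pearson r = 0.982), PRR9 (0.972), PSAO (0.971), GI (0.940) and PSBP-1 (0.937). PRR9 is a pseudo-response regulator and GI the clock protein GIGANTEA. PSAO is a subunit of photosystem I, and PSBP-1 a subunit of the oxygen-evolving complex of photosystem II. LNK3 came at rank 8 with r = 0.932. The region at AT5G64180 had 0.749 and that at AT5G64160 0.232, beside a median of −0.023 and a 95th percentile of 0.607 over all other regions. These values describe libraries that share depth, treatment and time, and 3 of the 5 regions also stand at 1 read in some libraries of 3 h. The 17 libraries include those of 3 h that chose AT5G06980, so the correlations are a description and give no support.

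Regions of the listed MYB-like factors moved in either direction or did not pass. Whether each factor is a partner of LNK proteins was not tested here. Of the 10 genes CCA1, LHY and RVE1 to RVE8, 5 had a region (RVE1, RVE2, RVE4, RVE5 and RVE6), and RVE8, the best-known partner, had none. With TSA at 3 h, 1 of the 5 regions was higher in the authors' deposited table, RVE4 with a log2 fold of 0.68 (FDR 0.0324), and 0 were lower, beside 10.7% and 10.1% of all regions. None was called over water in the other 6 of the authors' deposited tables. Between the times RVE2, a MYB-like factor under clock control, fell by 1.65 on the log2 scale (SE 0.10, adjusted p = 8.45e-11 by limma), with 210 to 489 reads at 3 h without TSA and 45 to 186 at 16 h. RVE1, a factor that links the clock to auxin, was higher at 16 h by 0.48 ± 0.16 (adjusted p = 0.0474 by limma), in a region that also overlaps AT5G17305. RVE4, RVE5 and RVE6 did not pass between the times (adjusted p = 0.851, 0.32 and 0.742 by limma). The median of the 5 was −0.07, beside −0.01 over all regions.

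The listed clock genes split by gene. Whether each is a target of LNK proteins was not tested here. The list was chosen with earlier results of these data known, so its counts are a description. Of PRR5, PRR7, PRR9, TOC1, GI, ELF4, LUX and FKF1, 6 had regions of their own, 7 in all, PRR5 and FKF1 being without. With TSA at 3 h, 4 of 7 regions were higher in the authors' deposited table, at GI (7.25), PRR9 (5.93), PRR7 (3.30) and ELF4 (0.77), and 1 of 7 was lower, the second region of LUX (−0.81), which also overlaps AT3G46650, beside 10.7% higher and 10.1% lower of all regions. The median of the 7 was 0.77 on the log2 scale in the authors' deposited table, beside 0.000456 over all regions. With GSNO at 3 h, 1 of 7 was called in the authors' deposited table, PRR9 (3.51, FDR 0.0133), on 1 and 37 reads against 1 and 1 in water, beside 0.0449% of all regions, and 0 of 7 in the remaining 5 tables.

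Between 3 h and 16 h, 2 of the 7 regions of the listed clock genes were higher and 1 lower by limma, beside 6.48% and 5.45% of all regions. PRR7, a pseudo-response regulator, rose by 3.44 ± 0.54 (adjusted p = 0.000118), from 1 to 58 reads in the 8 libraries of 3 h to 89 to 266 in the 7 of 16 h. PRR9 rose by 5.25 ± 1.63 (adjusted p = 0.0368 by limma). TOC1, the evening regulator that LNK proteins are known to activate, fell by 0.58 on the log2 scale (SE 0.10, adjusted p = 0.000485 by limma). ELF4, a member of the evening complex, had 62 to 207 reads at 3 h without TSA and 1 to 18 at 16 h, but its difference of −4.87 ± 2.09 had an adjusted p = 0.14 by limma. GI had 1 to 16 reads at 3 h without TSA and 49 to 232 at 16 h, and its difference of 5.31 ± 2.84 had an adjusted p = 0.25 by limma. At ELF4 and at GI the reads of the 2 times did not overlap. In scaled reads, all libraries of 16 h lay above those of 3 h at 2.0% of all regions and below at 1.28%.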

How the data were processed

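H3K9/14ac ChIP-seq regions and peaks were analysed as the authors deposited them. The log2 group means and log2 folds, and the p-values and FDR, come from 7 deposited tables of 13362 regions made with DiffBind and edgeR, per the submitters' processing notes. Aligner, peak caller and input handling: not given in the sources used here. Peak positions come from 20 deposited lists, from which 14 lines in 2 blocks were left out, and a peak counted where it overlapped a locus by 1 base. Each deposited group mean was found to be built from whole reads and a library factor, which gave back the reads of 17 libraries (100% whole, tolerance 1e-08). Recovered libraries carry no replicate number.

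Reads were scaled by trimmed means (trims 0.3 and 0.05), moved to log2 with a pseudocount of 1, which understates changes of low regions, and compared by limma 3.58.1 under R 4.3.3 (variance trend, two-sided, Benjamini-Hochberg over all regions, threshold 0.05), after checks on simulated data. Against the single water library of 16 h, these checks found 42.5% to 50% of simulated 2-fold changes. At 4-fold, 28 of 228 simulated calls for GSNO against water were false. The simulation gave every region the same relative spread, unlike uneven regions such as AT5G06980. For 16 h against water the deposited FDR was the main test. Limma p-values use 1 spread per region, pooled over all groups of both times and drawn toward the trend over all regions. The single water library of 16 h adds nothing to that spread. With at most 2 cultures in a group, p-values reflect only the spread between these few cultures. The members, the lists of MYB-like factors and clock genes, and the tests were chosen with earlier results of these data known, so no pattern seen before is independent support. Named were all members, the 5 regions most like AT5G06980, and list genes called in the TSA or 16 h tables. RVE1, RVE2, TOC1, GI and ELF4 over time, SCR and the neighbouring genes were named after their values were seen.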

Additional observations from a re-analysis of the deposited data

How the results depend on the processing

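No paired analysis was possible because the recovered libraries carry no replicate number, so the fit with a replicate block was not run. Of 381 alternative values, 328 were labelled the same, 43 moved, 7 changed sign and 3 passed the threshold only when a library was left out. The same meant an unchanged direction and side of the threshold, a count near the reported one, or a fold at 3 h within the pooled SD of its libraries. That SD is wide at AT5G06980, where log2 folds of 4.76 and 2.55 with GSNO, and of 3.12 and 1.70 with GSNO with cPTIO, were labelled the same. LNK3 kept its rise between the times in each of 15 fits without a library (2.78 to 3.15 on the log2 scale, adjusted p 1.55e-10 to 1.63e-08 by limma), and 1 to 2 of the 3 tested regions passed. The sign changes were all in differences that never passed, and only when 1 library was left out. LNK3 at 3 h ranged from −1.31 to 0.20 between GSNO and GSNO with cPTIO (0.09 without GSNO library a, 0.20 without GSNO with cPTIO library b) and from −0.21 (without GSNO with cPTIO library a) to 1.29 between GSH and GSNO with cPTIO. AT5G06980 at 16 h ranged from −0.00662 (without GSH library b; −0.00609 without GSNO library a) to 0.0291 between GSNO and GSH. Without GSNO with cPTIO library b it was 0.0280 for GSNO and 0.0156 for GSH against GSNO with cPTIO, in ranges from −0.106 and from −0.119. The cause was not tested.

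The log2 fold of AT5G06980 over water with TSA at 3 h was 6.57 with a pseudocount of 1, 5.05 with 5 and 6.60 with total reads as the scale, beside 7.47 as deposited. With a pseudocount of 1 and of 5 it was 2.55 and 1.73 with GSNO (4.76 as deposited), 3.58 and 2.26 with GSH (4.57) and 1.70 and 0.99 with GSNO with cPTIO (3.12), so that GSH stood above GSNO in place of below it. Regions called by limma over all 13362 ranged, without 1 library, from 28 to 69 for GSNO against water at 16 h (44 with all), were 25 for GSH without either library (50 with all), and ranged from 78 to 300 for GSNO with cPTIO (89 with all). For the direct comparisons the ranges were 0 to 61 (GSNO and GSH, 3 h), 1 to 52 (GSNO and GSNO with cPTIO, 3 h), 0 to 61 (GSH and GSNO with cPTIO, 3 h), 0 to 48, 2 to 287 and 0 to 382 (the same at 16 h). No variance trend gave 2 and 2 calls for GSNO and for GSH against GSNO with cPTIO at 3 h and 7 for GSNO against GSNO with cPTIO at 16 h, where a pseudocount of 5 and total reads each gave 5, beside 3. Peaks within 1 kb counted 6 lists at LNK1 and 8 at AT5G06980, at 3 h and at 16 h alike. By that count the times did not differ at these loci. At LNK2 (0 at 3 h and 5 at 16 h) and LNK3 (3 and 8) it matched the count of overlapping peaks. Peaks over at least 20% of the locus counted 0 at LNK1 and 0 at LNK2 at 16 h. Without the TSA lists, chosen after seeing the data, LNK3 had 1 of 8 and AT5G06980 0 of 8 at 3 h. A test of whether a response differs between the times was added likewise. Regions at 1 read, and a single water library at 16 h, limit every fold that rests on them.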
